A study of Mus musculus with 4 samples.

Results

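The response to transforming growth factor beta 1 (TGFB1) in *Hmga2*+/+ mouse embryonic fibroblasts (MEF) was described gene by gene, from 1 Ctrl library and 1 TGFB1 library of 4 RNA-seq libraries. Both libraries came from immortalized C57BL/6 MEF grown from the bodies of wild-type embryos of day 15.5, after removal of heads, limbs and tails, of the inner organs and of liver and heart. The cells of both libraries carried SV40 for immortalization, were starved overnight in medium with 1% FCS, and then received 10 ng/ml human recombinant TGFB1 or water (Ctrl) for 24 h. The other 2 libraries were *Hmga2*-/- MEF under the same Ctrl and TGFB1 treatments, and their values are given beside the *Hmga2*+/+ values where they bear on them. A gene belonged to the set when it had at least 1 RPKM in the Ctrl or the TGFB1 library (RPKM are reads scaled to the transcript's length and to the library's mapped reads). Each gene was represented by its transcript with the longest gene body, and 11177 of 25923 named genes met the rule.

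TGFB1 is a secreted cytokine that binds a pair of serine/threonine kinase receptors, whose type I member phosphorylates SMAD2 and SMAD3. These enter the nucleus with SMAD4 and change transcription together with other DNA-binding factors, while MAPK and other branches act in parallel. In fibroblasts the pathway is known for driving extracellular matrix production and the myofibroblast state, in which smooth muscle actin is assembled into stress fibres.

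Since each condition is a single library, no test was made and how far replicate cultures vary cannot be given. A gene is said to have risen or fallen when its RPKM differed at least 1.5-fold between the libraries, and intervals are exact 95% intervals of the ratio that cover counting error only. The reads behind each value were recovered from the RPKM, which gave 56140000 mapped reads for Ctrl and 57300000 for TGFB1. At these depths 3 reads on a transcript of 1000 bases stand for 0.0534 RPKM in Ctrl and 0.0524 RPKM in TGFB1. *Hmga2* itself, on chr10:120361275-120476935 of mm10, was at 14.8 RPKM in Ctrl and 40.7 RPKM with TGFB1, and its values in the *Hmga2*-/- libraries were 0 and 0 RPKM. Of the defining markers of other cells, *Ptprc* and *Adgre1* of leukocytes, *Pecam1* and *Cdh5* of endothelium, *Epcam* and *Krt5* of epithelium, and *Myod1* of muscle were all under 1 RPKM in both *Hmga2*+/+ libraries. Past the filter were 1 of 8 leukocyte markers, 1 of 11 epithelial, 0 of 10 muscle and 2 of 8 endothelial markers, of which *Kdr* went from 1.11 to 4.46 RPKM and *Tek* from 2.75 to 0.33 RPKM with TGFB1. Of 8 cartilage markers 3 passed it, with *Acan* from 0.039 to 1.15 RPKM, and of 8 neural markers 2, with *Map2* from 18.1 to 8.82 RPKM and *Tubb3* from 0.913 to 2.81 RPKM. All 12 fibroblast markers passed the filter, from *Vim* at 958 and 1119 RPKM down to *Lum* at 1.08 and 0.363 RPKM in Ctrl and TGFB1.

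Of the 11177 genes, 1322 rose (11.8%), 1945 fell (17.4%) and 7910 did neither. At least 4-fold changes were split evenly, with 151 genes higher and 155 lower, whereas at least 8-fold changes were seen in 62 genes that rose and 39 that fell. The median log2 ratio over all these genes was -0.049. The interval lay wholly beyond 1.5-fold for 939 of the genes that rose and 1228 of those that fell. The filter was passed through the TGFB1 library alone by 276 genes and through the Ctrl library alone by 621 genes, so that such genes were likely to be counted as changed in that direction. Just inside the filter lay *Chmp4c*, at 0.52 and 1 RPKM, and just outside it *Spin2c*, at 0.998 and 0.161 RPKM in Ctrl and TGFB1. Among 2054 changed genes with at least 2 transcripts past the filter, 2044 had all those transcripts on the same side of no change.

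**Figure D1:**
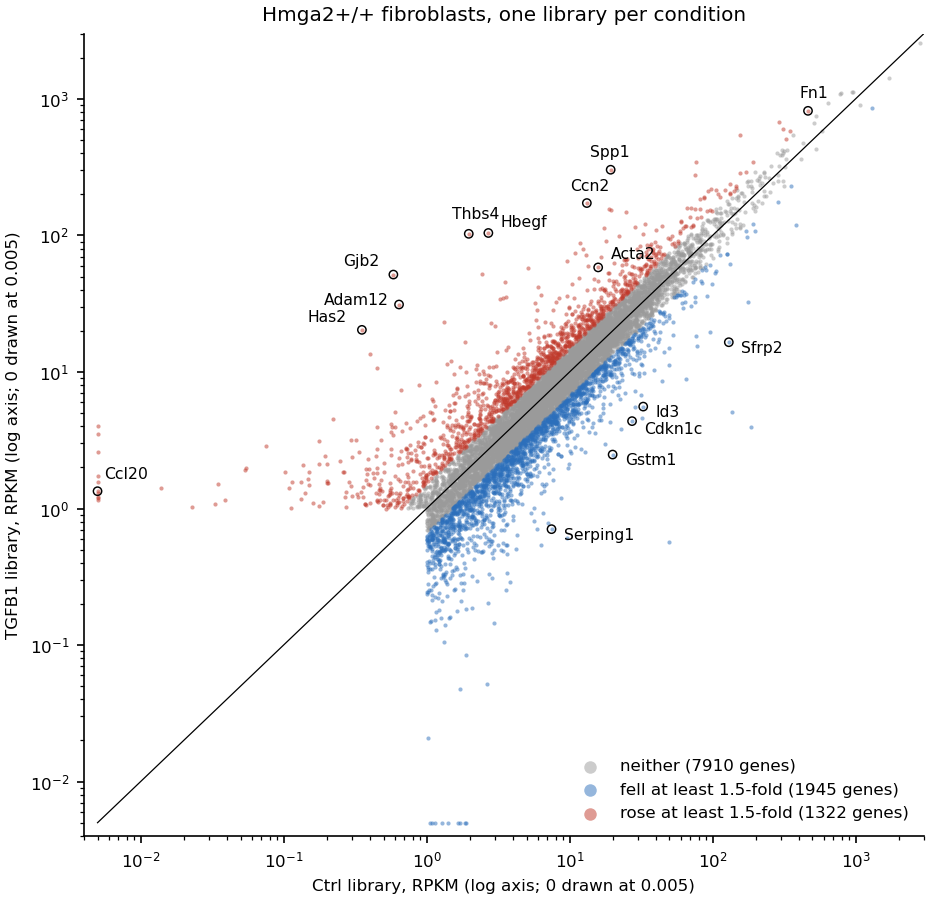
RPKM of each gene in the Ctrl library (horizontal, log axis) and the TGFB1 library (vertical, log axis) of *Hmga2*+/+ fibroblasts, with genes at 0 placed at the edge of the plot. The 1322 red points rose and the 1945 blue points fell at least 1.5-fold, and circled genes such as *Gjb2*, *Thbs4* and *Hbegf* lie far above the line of equal values while *Serping1* and *Sfrp2* lie below it.

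The balance of rises and falls shifted with the level of the gene. Among genes with a mean under 3 RPKM, 12.9% rose and 33.3% fell, and their median log2 ratio was -0.29. At 100 RPKM or more, 19.8% rose and 4.81% fell, with a median of 0.26 over 187 genes. Short RNA genes were often called in both directions, with 48 of 206 miRNA genes up and 89 down and 31 of 78 snoRNA genes up and 10 down. Reads can be few on such short genes, though *Mir6236* had 340 in Ctrl. In a total RNA library they may stand for precursor or host RNA and not for mature miRNAs, and their origin was not tested.

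**Figure D2:**
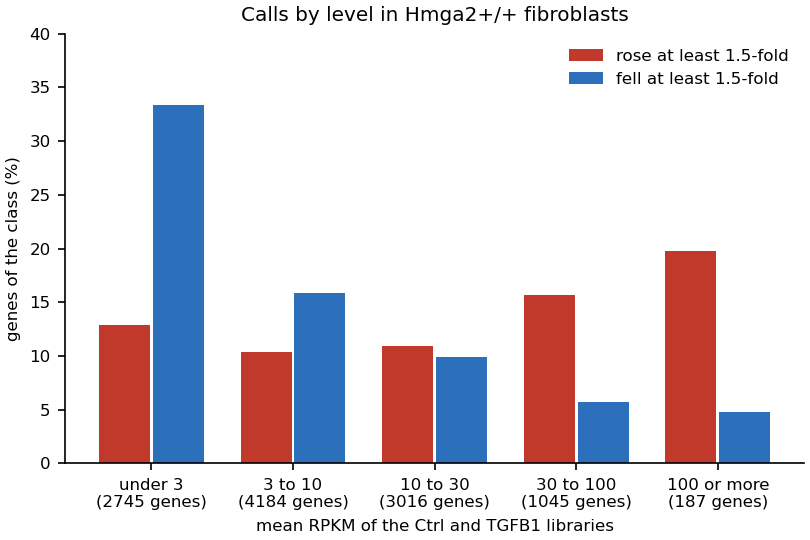
Percent of genes that rose (red) or fell (blue) at least 1.5-fold on TGFB1, by the mean RPKM of both *Hmga2*+/+ libraries. Falls outnumber rises under 10 RPKM, with 33.3% against 12.9% in the lowest class, and rises outnumber falls from 10 RPKM up.

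The genes were then read by function, in lists of pathway members chosen with earlier results of these data known. Lists that stood far above the median of all genes held EGF ligands, matricellular proteins, ribosome biogenesis factors, and enzymes of serine and proline synthesis. Those far below it held complement components, matrix proteases and interferon-induced genes. A list is described by its counts and median, beside 11.8% and 17.4% for all genes, and no list was tested against the others.

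**Figure D3:**
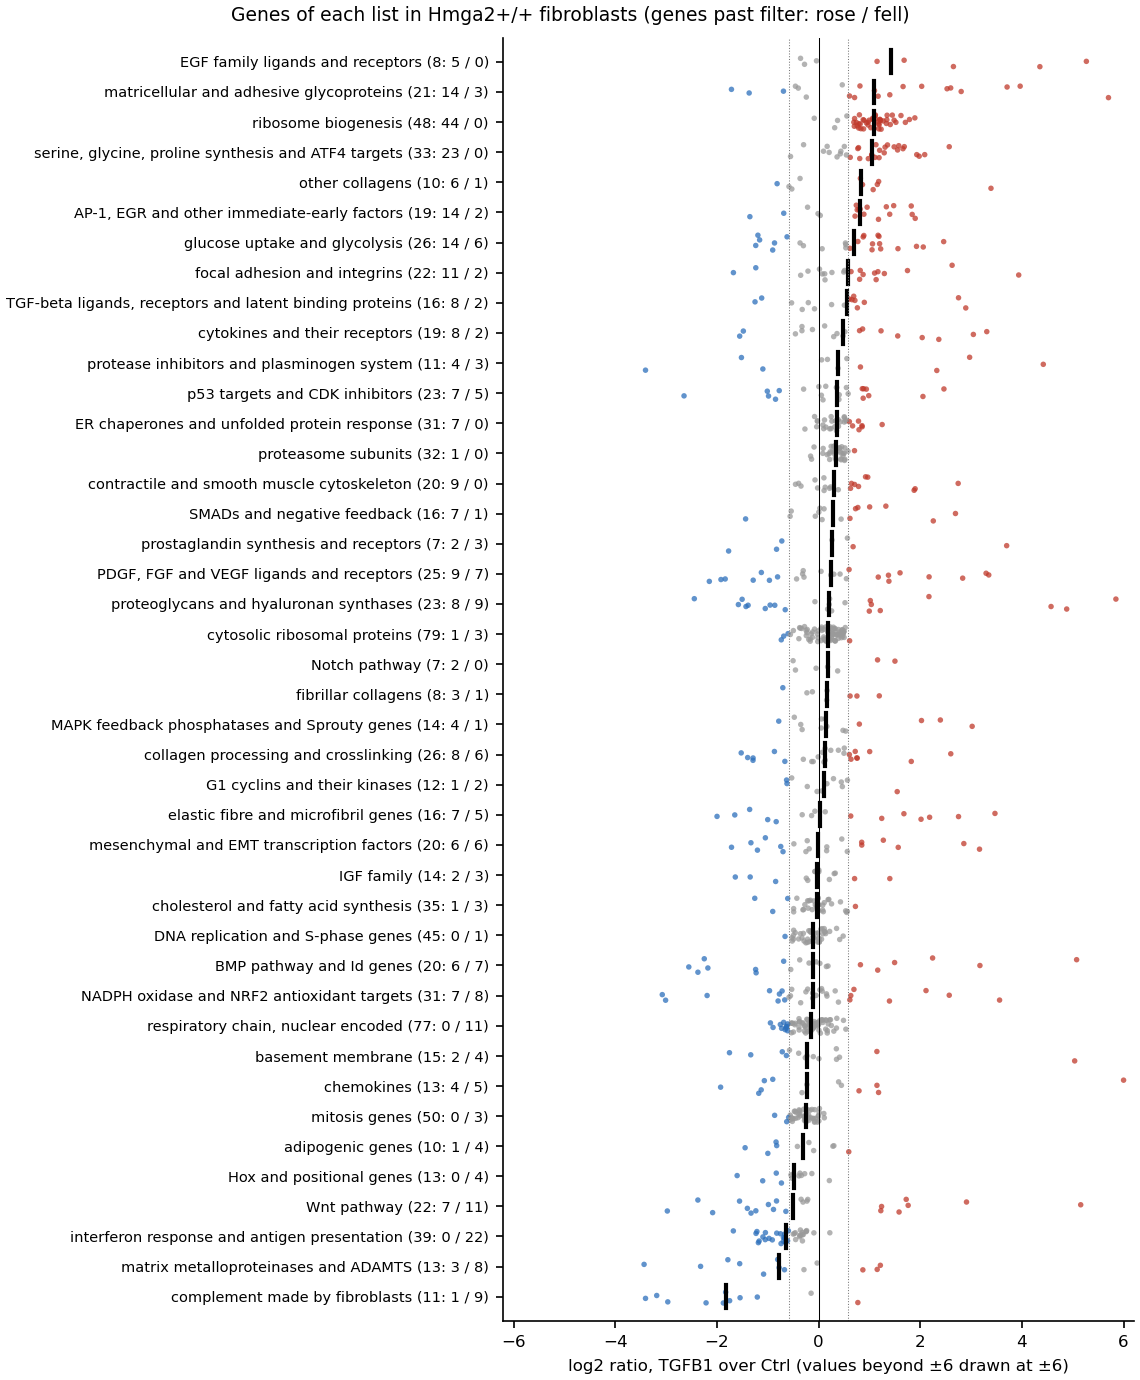
Log2 ratio of TGFB1 over Ctrl for every gene past the filter in each of 42 lists, ordered by the median (black bar), with the number of genes and how many rose and fell in brackets. Dotted lines mark 1.5-fold and values beyond the axis are drawn at its ends. Medians run from -1.83 for complement genes to 1.42 for the EGF family.

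Among TGF-beta ligands, receptors and latent binding proteins, 8 of 16 genes past the filter rose and 2 fell, with a median log2 ratio of 0.56. With a pseudocount of 1, 4 rose and 2 fell, and at a 2-fold threshold 2 rose and 2 fell. The ligand genes did not move together. *Tgfb1* went from 7.56 RPKM in Ctrl to 11.9 RPKM with TGFB1 and *Tgfb3* from 23.5 to 35.8 RPKM, whereas *Tgfb2* went down from 11.9 to 5.01 RPKM. *Inhba*, which encodes the activin A subunit, showed a larger change, from 11.9 to 88.3 RPKM, or 7.44-fold (interval 6.97 to 7.94). *Ltbp2*, a microfibril-associated protein of the latent TGF-beta binding family that does not itself bind latent TGF-beta, was 6.74-fold higher at 74.1 RPKM. Of the receptors, the type I receptor gene *Tgfbr1* rose 1.61-fold, the type II receptor gene *Tgfbr2* was at 36.6 and 31.8 RPKM, and the co-receptor gene *Tgfbr3*, or betaglycan, was 2.17-fold lower. *Lrrc32*, which anchors latent TGF-beta on the cell surface, went from 3.19 to 5.23 RPKM.

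Several genes that damp SMAD signalling were higher, while those of the SMADs that carry the TGF-beta signal were not. Of 16 genes for SMADs and their antagonists, 7 rose and 1 fell. *Pmepa1*, which keeps receptor-activated SMADs from the receptor, went from 17.4 to 113 RPKM, 6.46-fold (interval 6.26 to 6.67). *Skil*, a SMAD corepressor, was 4.78-fold higher and the corepressor *Tgif1* 2.5-fold. *Smad7*, the inhibitory SMAD of the TGF-beta branch, was at 6.4 RPKM in Ctrl and 10.6 RPKM with TGFB1, and the ubiquitin ligase genes *Smurf1* and *Smurf2* rose 1.71-fold and 1.53-fold. *Smad2* and *Smad4* stood at 6.94 and 14.6 RPKM in Ctrl and 7.47 and 15.3 RPKM with TGFB1, and *Smad3* had a log2 ratio of -0.56, just short of 1.5-fold. *Smad6*, the inhibitory SMAD of the bone morphogenetic protein (BMP) branch, was the gene that fell, from 7.26 to 2.69 RPKM.

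In the BMP branch, whose ligands signal through SMAD1, SMAD5 and SMAD9, 6 of 20 genes rose and 7 fell. Some of the falls passed the filter through the Ctrl library alone. With at least 1 RPKM in both libraries, 5 of 14 genes rose and 3 fell. All 4 Id genes, which encode helix-loop-helix inhibitors and are standard readouts of BMP signalling, were lower. *Id1* went from 16 to 6.77 RPKM, *Id2* from 44.3 to 8.54 RPKM, *Id3* from 32.7 to 5.58 RPKM and *Id4* from 1.62 to 0.359 RPKM. *Id3* was thus 5.87-fold lower (interval 5.19 to 6.66). *Smad9* was 4.75-fold lower at 0.757 RPKM, while *Smad1* and *Smad5* had log2 ratios of 0.18 and 0.15. Several secreted antagonists of BMP and activin went the other way, though not *Chrd*, the chordin gene, at 1.24 and 0.845 RPKM. *Grem1*, the gremlin 1 gene, rose from 2.47 to 6.97 RPKM, 2.82-fold (interval 2.42 to 3.29), and the follistatin genes *Fst* and *Fstl3* rose 2.24-fold and 4.73-fold. The ligand gene *Bmp2* was at 1.85 RPKM in Ctrl and 16.7 RPKM with TGFB1, and *Bmp4* was at 14.4 and 12.6 RPKM. *Atoh8*, a transcription factor gene known as a BMP target and not in the list, was among the 20 genes with the firmest falls, at 6.36 and 0.545 RPKM.

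The 4 ligand genes of the EGF receptor family past the filter rose, and the receptor genes did not. *Hbegf*, the gene of heparin-binding EGF-like growth factor on chr18:36504927-36515805, went from 2.71 RPKM in Ctrl to 104 RPKM with TGFB1. That was 38.5-fold (interval 34.7 to 42.9), from 359 and 14118 reads. *Areg* went from 0.222 to 4.54 RPKM and *Ereg* from 1.72 to 10.8 RPKM, and *Nrg1*, the neuregulin 1 gene, rose 2.22-fold. *Egfr* and *Erbb2*, the receptor genes, stood at 15.9 and 7.46 RPKM in Ctrl and 13.1 and 5.83 RPKM with TGFB1. *Adam17*, whose protease sheds such ligands, was at 18.6 and 18 RPKM. *Errfi1*, an inhibitor of the EGF receptor kinase, rose 3.21-fold. In all, 5 of 8 family genes past the filter rose and none fell, while 9 lay under 1 RPKM in both libraries. The median log2 ratio of 1.42 rests on these 8 genes and is 0.09 when all family genes with a read are taken.

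**Figure D4:**
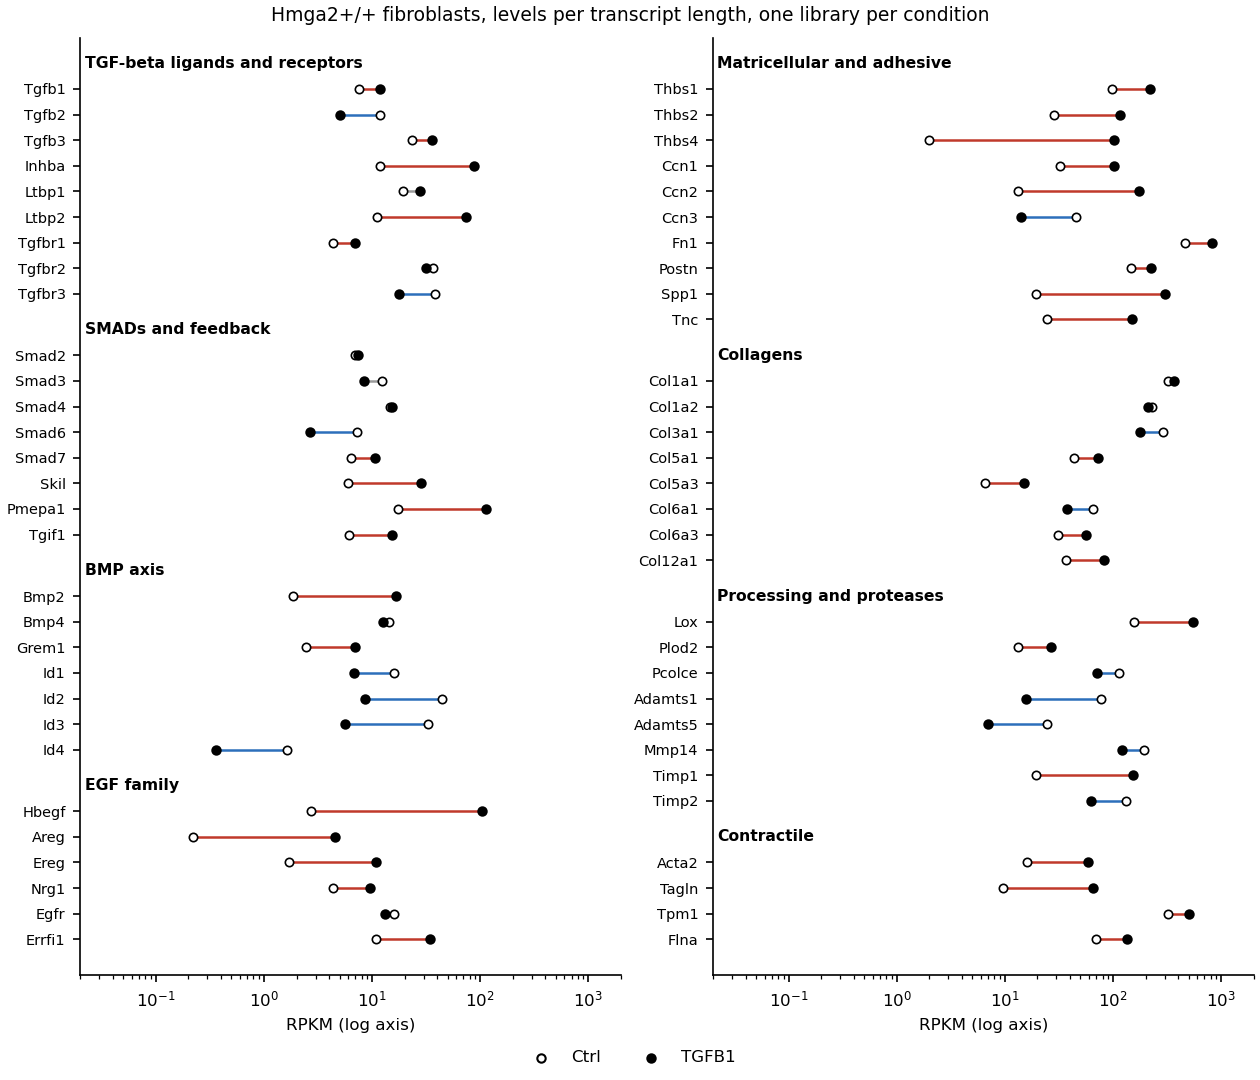
RPKM (log axis) of single genes in the Ctrl library (open circles) and the TGFB1 library (filled circles) of *Hmga2*+/+ fibroblasts, for signalling genes (left) and matrix and contractile genes (right). Red lines join genes that rose and blue lines genes that fell at least 1.5-fold. *Hbegf* and *Thbs4* both end near 100 RPKM from under 3, and the 4 Id genes run the opposite way.

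Other growth factor genes split by family. Of 25 genes for PDGF, FGF, VEGF and related factors, 9 rose and 7 fell. *Fgf2*, a mitogen of fibroblasts, went from 3.41 to 34.7 RPKM, whereas *Fgf7* and *Fgf10*, which act on epithelia, fell 3.79-fold and 4.44-fold. *Pdgfc* was 7.13-fold and *Pdgfa* 2.61-fold higher, while the receptor gene *Pdgfra* was 2.18-fold lower and *Pdgfrb* was at 36.1 and 48.3 RPKM. *Vegfa* and *Vegfc* rose 3.04-fold and 2.26-fold, and *Vegfb* and *Vegfd* fell 1.96-fold and 3.57-fold. In the IGF family 2 of 14 genes rose and 3 fell, with *Igfbp7* 2.64-fold higher and *Igfbp4* 3.11-fold lower. *Igf1* went from 1.48 to 0.825 RPKM, a 1.8-fold fall that is not called with a pseudocount of 1 or with at least 1 RPKM required in both libraries.

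In the Wnt pathway, 7 of 22 genes rose and 11 fell, and secreted inhibitors were among the deepest falls. Most of the rises passed the filter through the TGFB1 library alone, and with at least 1 RPKM in both libraries 2 of 15 rose and 9 fell. *Sfrp2*, a secreted Wnt antagonist, went from 130.0 to 16.5 RPKM, 7.87-fold lower (interval 7.5 to 8.26). *Sfrp1* and *Dkk2*, of the same function, were 4.24-fold and 5.19-fold lower, as were the Wnt-enhancing R-spondin genes *Rspo2* and *Rspo3*, by 2.51-fold and 2.64-fold. *Lef1* and *Axin2*, known as transcriptional targets of the pathway, were higher from low levels. *Lef1* went from 0.054 to 1.93 RPKM and *Axin2* from 0.979 to 3.32 RPKM, and *Nkd2*, which encodes an inhibitor of the pathway, from 0.206 to 1.55 RPKM. Of the ligand genes *Wnt5a* rose 2.36-fold, *Wnt9a* 3.3-fold and *Wnt10a* 3-fold, and *Wnt5b* and *Wnt10b* fell. In the Notch pathway the ligand gene *Jag1* rose 2.23-fold and the target gene *Hes1* 2.83-fold, while the other 5 of 7 genes past the filter neither rose nor fell.

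Matricellular and adhesive glycoproteins, which lie in the matrix and act on cells, rose in 14 of 21 cases with a median log2 ratio of 1.10. *Thbs4*, the thrombospondin 4 gene on chr13:92751586-92794818, was at 1.97 RPKM in Ctrl and 103 RPKM with TGFB1, from 350 and 18600 reads. It was 52.1-fold higher (interval 46.8 to 58). The other thrombospondins rose less or not at all, with *Thbs1* from 97.4 to 219 RPKM, *Thbs2* from 28.5 to 116 RPKM and *Thbs3* at 13.9 and 10.1 RPKM. The CCN family also split. *Ccn2*, the connective tissue growth factor gene, went from 13.2 to 173 RPKM, 13.1-fold, and *Ccn4* rose 5.76-fold and *Ccn1* 3.16-fold, but *Ccn3* went down from 45.8 to 14 RPKM. *Spp1*, the osteopontin gene, reached 303 RPKM from 19.4 RPKM, and *Tnc*, the tenascin C gene, 149 RPKM from 24.7 RPKM. *Fn1*, the fibronectin gene, had the highest level of the list, at 465 and 818 RPKM, and was 1.76-fold higher. *Tgfbi*, named for its induction by TGF-beta, was lower here, at 23 and 14.2 RPKM.

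The genes of type I collagen, which makes up the bulk of the fibrils, changed less than 1.5-fold. *Col1a1* was at 325 and 363 RPKM in Ctrl and TGFB1, *Col1a2* at 231 and 212 RPKM, and *Col3a1* fell from 287 to 176 RPKM. The 3 type V collagen genes, whose product controls fibril diameter, all rose, with *Col5a1* 1.69-fold, *Col5a2* 1.54-fold and *Col5a3* 2.29-fold. Summed over the 11 fibrillar collagen genes, the level was 1050.1 RPKM in Ctrl and 1064 RPKM with TGFB1. Of 10 other collagens 6 rose, among them *Col12a1*, *Col8a1* and the anchoring fibril collagen *Col7a1*, at 2.27-fold, 2.23-fold and 10.5-fold. The chains of collagen VI parted, since *Col6a3* rose 1.82-fold while *Col6a1* fell 1.76-fold and *Col6a2* had a log2 ratio of -0.58.

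Enzymes that modify and crosslink collagen gave 8 rises and 6 falls among 26 genes. *Lox*, the lysyl oxidase gene, went from 155 to 547 RPKM, 3.54-fold (interval 3.5 to 3.58), and *Plod2*, a lysyl hydroxylase gene of fibrotic crosslinks, 2.01-fold. *Serpinh1*, the collagen chaperone gene HSP47, was at 167 and 176 RPKM. The propeptide-cleaving protease genes *Adamts2* and *Adamts3* fell 2.87-fold and 2.63-fold, and the transglutaminase gene *Tgm2* 2.45-fold. Elastic fibre genes were divided, with 7 of 16 up and 5 down. *Eln*, the elastin gene, went from 3.61 to 14.6 RPKM, *Fbn1*, the fibrillin 1 gene, from 66.6 to 158 RPKM and *Fbln2* from 76.4 to 347 RPKM, while *Mfap2* fell 4-fold and *Fbln1* 2.56-fold.

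Proteoglycan genes were divided as well, with 8 genes up and 9 down of 23. Some of the rises, *Has2*, *Acan* and *Prg4* among them, passed the filter through the TGFB1 library alone. With at least 1 RPKM in both libraries, 5 of 19 genes were up and 8 down. *Has2*, the hyaluronan synthase gene, went from 0.353 to 20.3 RPKM, 57.6-fold (interval 46.4 to 72.4), the largest ratio of the list, and *Vcan*, the gene of the hyaluronan-binding versican, was 2.05-fold higher. *Acan* and *Prg4*, genes of cartilage and joint proteoglycans, rose from 0.039 and 0.452 RPKM to 1.15 and 10.8 RPKM. Small leucine-rich proteoglycans went both ways. *Bgn*, the biglycan gene, went from 294 to 681 RPKM and *Fmod* from 3.11 to 14 RPKM, but *Ogn* fell from 178 to 32.7 RPKM, *Aspn* from 197 to 108 RPKM and *Dcn*, the decorin gene, from 7.2 to 2.68 RPKM. In the basement membrane list *Lamb1* and *Lamb3* rose and *Col4a5*, *Nid2*, *Lama4* and *Lamb2* fell, and the main type IV collagen genes *Col4a1* and *Col4a2* had log2 ratios of 0.41 and 0.35.

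Matrix proteases fell in 8 of 13 cases and rose in 3, while 15 more, *Mmp9* and *Mmp13* among them, were under 1 RPKM in both libraries. Aggrecanase genes were not alike, since *Adamts4* was at 1.81 and 1.78 RPKM and others fell. *Adamts1* went from 77.6 to 15.5 RPKM, *Adamts5* from 24.3 to 7.05 RPKM and *Adamts9* from 3.63 to 0.336 RPKM. *Mmp14*, the membrane-bound collagenase gene with the highest level of the list, was 1.59-fold lower, and *Mmp2* was at 73.8 and 60.4 RPKM. *Mmp3* was the only MMP gene past the filter that rose, from 2.42 to 5.38 RPKM. Among the inhibitors, *Timp1*, a tissue inhibitor of metalloproteinases, went from 19.5 to 153 RPKM, 7.84-fold (interval 7.33 to 8.39). *Timp2* and *Reck*, inhibitors of metalloproteinases as well, fell 2.14-fold and 2.86-fold, and *Timp3* was at 84.4 and 110.0 RPKM. *Adam12*, a disintegrin and metalloproteinase gene outside this list, rose 48.6-fold to 31.2 RPKM.

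The contractile list, which holds actins, tropomyosins, calponins and their regulators, rose in 9 of 20 genes past the filter and fell in none. With at least 1 RPKM in both libraries 7 of 18 rose and 0 fell. With at least 0.1 RPKM in 1 library 9 of 23 rose and 3 fell. *Acta2*, the smooth muscle actin gene that defines myofibroblasts, on chr19:34240336-34255373, was at 15.9 RPKM in Ctrl and 58.3 RPKM with TGFB1, or 3.68-fold (interval 3.51 to 3.85). *Tagln*, the transgelin gene, went from 9.66 to 64.8 RPKM. The abundant cytoskeletal genes moved less, with *Tpm1* at 325 and 509 RPKM, *Tpm4* at 170.2 and 293 RPKM and *Flna* at 69.5 and 136 RPKM. Other smooth muscle genes of the list were not alike. *Myh11*, *Myocd*, *Lmod1*, *Mylk* and *Des* were under 1 RPKM in both libraries. Of these, *Mylk* went from 0.791 to 0.131 RPKM and *Lmod1* from 0.303 to 0.053 RPKM with TGFB1. *Actg2* and *Cnn1* rose from 0.274 and 0.938 RPKM to 1.02 and 1.45 RPKM, and *Smtn* was at 13.2 and 15.3 RPKM. *Srf*, *Mrtfa* and *Mrtfb*, the transcription factor genes that control such genes, had log2 ratios of 0.13, -0.45 and -0.071. Integrin and focal adhesion genes gave 11 rises and 2 falls of 22. Several of the rises passed the filter through the TGFB1 library alone, and with at least 1 RPKM in both libraries 6 of 17 rose and 2 fell. The fibronectin receptor chains *Itga5* and *Itgav* rose 2.15-fold and 2.19-fold, *Itgb1*, the common beta chain, went from 155 to 285 RPKM, and *Itgb5*, whose product takes part in activating latent TGF-beta, rose 1.56-fold. The collagen receptor chains differed, with *Itga11* at 6.18-fold, *Itga2* at 15.3-fold from 0.137 RPKM in Ctrl, and *Itga1* 3.2-fold lower.

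The 250 bases before the start of *Thbs4* and of *Acta2* are shown because these genes mark the matrix and contractile responses and because both windows hold the letters GGAATG, the core of the TEAD motif, on either strand (capitals). The windows are chr13:92794819-92795068 and chr19:34255374-34255623 of GRCm38, both on the minus strand and written 5′ to 3′, from RefSeq.
Thbs4: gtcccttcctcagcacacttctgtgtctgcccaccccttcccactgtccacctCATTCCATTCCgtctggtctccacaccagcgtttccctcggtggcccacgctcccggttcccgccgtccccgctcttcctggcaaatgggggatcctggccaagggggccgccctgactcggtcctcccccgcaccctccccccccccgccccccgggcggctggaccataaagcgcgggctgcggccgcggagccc
Acta2: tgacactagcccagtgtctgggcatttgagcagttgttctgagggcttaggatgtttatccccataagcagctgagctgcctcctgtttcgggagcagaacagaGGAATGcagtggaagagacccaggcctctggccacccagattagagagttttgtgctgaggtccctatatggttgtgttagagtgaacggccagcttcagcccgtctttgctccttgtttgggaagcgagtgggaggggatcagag
In *Thbs4* the letters stand at 2 places, 197 and 192 bases before the start, and in *Acta2* at 1, 146 bases before it. Over windows from 250 bases before to 50 after the start, GGAATG was present in 6 of 17 contractile genes with a window and in 11.5% of all 8558 genes with one, in 11.2% of all genes that rose and in 13.1% of those that fell. The strict CArG box, the site of SRF, was taken as CC and GG with 6 letters A or T between. It was in 4 of the 17 contractile genes, *Cnn2*, *Myl9*, *Srf* and *Vcl*, none of which rose, and in 1.29% of all. Looser forms were not counted, such as the ccctatatgg of the *Acta2* window above, which has another letter among the 6. The AP-1 letters TGAGTCA were in 3.13% of windows of genes that rose, 3.52% of those that fell and 3.08% of all. A match of letters is a description and not a bound site.

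Immediate-early and AP-1 transcription factor genes stood higher at 24 h in 14 of 19 cases, with 2 falls. *Myc* went from 5.17 to 19.3 RPKM, *Jun* from 23.9 to 66.6 RPKM, *Junb* from 6.2 to 14 RPKM and *Fosl1* from 2.38 to 8.53 RPKM. *Fos* and *Fosl2* stayed at 4.46 and 9.3 RPKM in Ctrl and 4.56 and 9.23 RPKM with TGFB1. *Klf2* was 2.55-fold lower, whereas *Klf10*, known as a TGF-beta inducible early gene, rose 1.94-fold. Of 14 MAPK feedback phosphatase and Sprouty genes 4 rose and 1, *Spry2*, fell, with a median of 0.14, and the phosphatase genes among the rises were *Dusp5* 8.12-fold, *Dusp6* 5.26-fold and *Dusp4* 4.07-fold higher. Mesenchymal transcription factor genes rose in 6 and fell in 6 of 20 cases. *Runx1* rose from 1.17 to 8.46 RPKM and the tendon factor gene *Scx* from 6.19 to 15 RPKM, but *Snai2* and *Twist1*, textbook factors of epithelial-mesenchymal transition, fell from 41.5 and 62.8 RPKM to 16.5 and 38.7 RPKM, and *Snai1* was at 1.73 and 1.53 RPKM. Of 13 Hox and other positional genes past the filter none rose and 4 fell, *Hoxa13* by 3.04-fold.

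Ribosome biogenesis was the list with the largest share of genes that rose. These genes encode the polymerase I subunits and the nucleolar factors that transcribe, cut and fold ribosomal RNA, and 44 of 48 rose with none falling. Their median log2 ratio was 1.08 and their summed level went from 954 to 1885 RPKM. *Rrp12* went from 2.91 to 10.8 RPKM, *Heatr1* from 6.77 to 23.4 RPKM and *Ncl*, the nucleolin gene, from 87.5 to 187 RPKM. *Polr1a* and *Polr1b*, polymerase I subunit genes, rose 2.17-fold and 2.52-fold, while *Polr1c*, shared with polymerase III, was at 6.83 and 6.44 RPKM. The ribosomal protein genes themselves did not follow. Of 79, 1 rose and 3 fell, with a median of 0.19, although their many near-identical pseudogenes make the level of each uncertain. *Npm1*, at 346 and 586 RPKM, has such copies too.

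**Figure D5:**
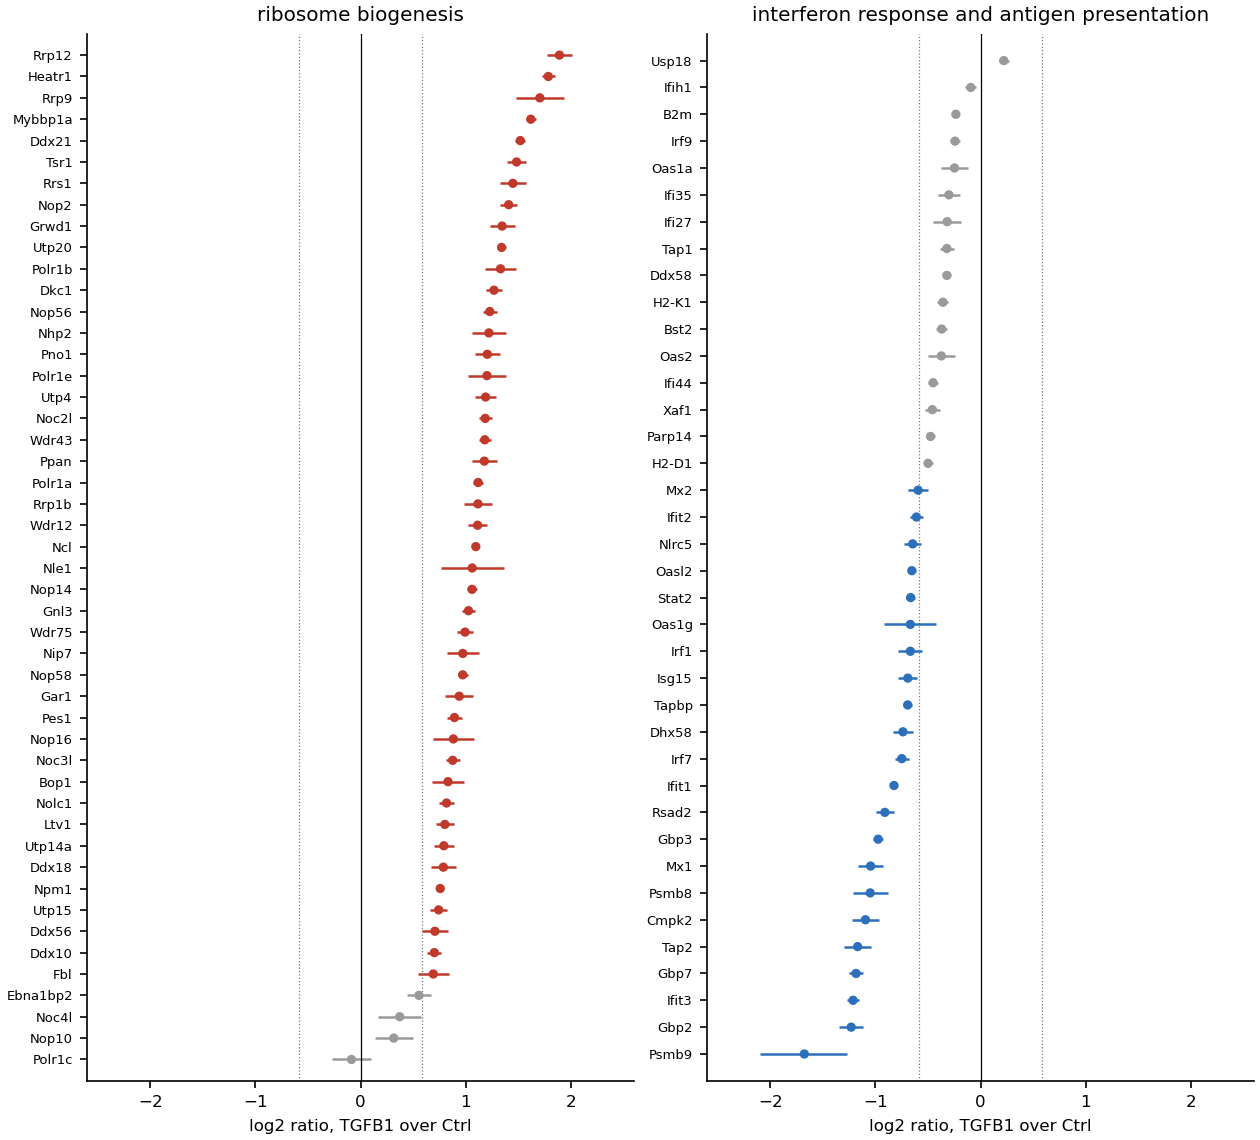
Log2 ratio of TGFB1 over Ctrl in *Hmga2*+/+ fibroblasts (points) with the exact 95% interval of counting error (bars) for ribosome biogenesis genes (left) and interferon-induced and antigen presentation genes (right). Dotted lines mark 1.5-fold. On the left 44 of 48 genes lie beyond the upper line, and on the right 22 of the 38 plotted lie beyond the lower one.

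Amino acid synthesis and the targets of ATF4, the transcription factor of the amino acid and stress response, rose in 23 of 33 cases and fell in none, with a median of 1.05. *Atf4* itself went from 60.5 to 125 RPKM. The serine pathway rose along its length, with *Phgdh* at 1.75-fold, *Psat1* at 2.47-fold, *Psph* at 1.54-fold and *Shmt2*, which makes glycine in mitochondria, from 14.8 to 47.7 RPKM. Glycine and proline are the main residues of collagen, and *Aldh18a1*, the first enzyme gene of proline synthesis, rose 2.19-fold and *Pycr1*, the last, went from 0.621 to 1.06 RPKM. *Asns*, the asparagine synthetase gene, went from 10.4 to 44.3 RPKM, 4.25-fold (interval 3.98 to 4.54). Of the amino acid carriers, *Slc7a11* for cystine went from 0.579 to 3.44 RPKM, *Slc7a1* for arginine rose 2.98-fold and *Slc7a5* for leucine 2.3-fold. *Glul*, the glutamine synthetase gene, was at 3.63 and 2.96 RPKM.

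*Slc7a11* and *Chac1*, a glutathione-degrading enzyme gene that rose 2.45-fold to 4.04 RPKM, are shown with the 250 bases before their start because these hold the ATF4 letters TGATGCAA on either strand (capitals). The windows are chr3:50443614-50443863 on the minus strand and chr2:119350992-119351241 on the plus strand of GRCm38, from RefSeq.
Slc7a11: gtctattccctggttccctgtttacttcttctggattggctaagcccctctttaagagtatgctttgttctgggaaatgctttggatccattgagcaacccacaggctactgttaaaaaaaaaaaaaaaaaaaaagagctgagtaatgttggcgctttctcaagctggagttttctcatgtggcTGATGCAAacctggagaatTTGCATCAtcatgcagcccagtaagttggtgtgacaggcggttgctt
Chac1: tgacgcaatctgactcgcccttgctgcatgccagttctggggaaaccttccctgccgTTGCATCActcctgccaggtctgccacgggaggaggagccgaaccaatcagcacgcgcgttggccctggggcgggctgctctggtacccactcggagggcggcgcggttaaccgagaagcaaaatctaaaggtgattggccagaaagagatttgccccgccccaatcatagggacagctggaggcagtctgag
They lie 66 and 47 bases before the start of *Slc7a11* and 193 before that of *Chac1*. In windows of 250 bases before to 50 after the start, TGATGCAA was found in 5 of 25 list genes, the others being *Pycr1*, *Slc1a4* and *Vldlr*. It was in 0.549% of all 8558 windows, in 18 of 959 windows of genes that rose (1.88%) and in 8 of 1393 of genes that fell (0.574%). The list joined enzymes of amino acid synthesis with known ATF4 targets, and the letters are partly what such targets were first recognized by.

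Glucose uptake and glycolysis rose in 14 of 26 genes and fell in 6. Some of the falls passed the filter through the Ctrl library alone, and with at least 1 RPKM in both libraries 13 of 21 rose and 3 fell. The glucose carrier gene *Slc2a1* went from 9.9 to 29.2 RPKM, the hexokinase gene *Hk2* from 1.91 to 7.96 RPKM, *Pfkfb3*, whose product activates phosphofructokinase, from 1.56 to 5.91 RPKM, and the lactate exporter gene *Slc16a3* from 1.1 to 6.08 RPKM. The genes of abundant enzymes followed, with *Eno1* 2.25-fold, *Ldha* 2.07-fold and *Pkm* 1.84-fold higher, though pseudogene copies make such levels uncertain. Among the falls were genes of isoforms that other tissues use, *Pfkm* of muscle (2.36-fold lower), *Ldhb* of heart (2.29-fold) and *Aldoc* and *Eno2* of brain (2.24-fold and 1.87-fold). *Hk1* was at 12.1 and 12.7 RPKM. *Gapdh* fell short of the filter by the transcript with the longest body and is left out. Nuclear-encoded respiratory chain genes rose in 0 and fell in 11 of 77 cases, with a median log2 ratio of -0.15.

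Genes of the secretory pathway mostly lay above their Ctrl level without passing 1.5-fold. Of 31 endoplasmic reticulum (ER) chaperone and unfolded protein response genes 7 rose and none fell, and 26 had a log2 ratio above 0. *Hspa5*, the gene of the ER chaperone BiP, went from 191 to 346 RPKM, 1.81-fold, *Hsp90b1* and *Calr* were at 532 and 637 RPKM in Ctrl and 755 and 926 RPKM with TGFB1, and *Ddit3*, the gene of the stress factor CHOP, was at 19.7 and 19.4 RPKM. Proteasome subunits gave 1 rise and no fall among 32 genes, with a median of 0.33. Sterol and fatty acid synthesis gave 1 rise, *Cyp51* at 1.65-fold, and 3 falls among 35 genes. Oxidant genes were split, with 7 of 31 up and 8 down. *Nox4*, an NADPH oxidase gene known in fibrosis, went from 1.31 to 3.44 RPKM, whereas the glutathione transferase genes *Gstm1*, *Gstm2* and *Gsta4* fell 8.06-fold, 4.57-fold and 8.43-fold and *Cat*, the catalase gene, 1.71-fold.

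Few proliferation genes passed 1.5-fold. Among 45 DNA replication genes 0 rose and 1 fell, *Tk1* from 19.2 to 12.2 RPKM, and among 50 mitosis genes 0 rose and 3 fell, the medians being -0.11 and -0.25. Below 0 lay 30 of the replication genes and 45 of the mitosis genes. These cells carry SV40, whose large T antigen binds p53 and the retinoblastoma protein, and its part in these values was not tested. The inhibitors of cyclin-dependent kinases changed more. *Cdkn1a* and *Cdkn2b*, which TGF-beta is known to induce, went from 6.28 and 14.4 RPKM to 12.4 and 27.5 RPKM, while *Cdkn1c* fell from 27.4 to 4.37 RPKM, 6.27-fold (interval 5.69 to 6.91), and *Cdkn1b* and *Cdkn2c* fell 1.8-fold and 1.98-fold. In the list of p53 targets and these inhibitors 7 of 23 rose and 5 fell, with *Pmaip1* at 5.52-fold and *Mdm2* at 1.81-fold. *Cdk6* was the gene that rose among 12 G1 cyclin and kinase genes, from 0.844 to 2.46 RPKM, and *Ccnd1* and *Rbl2* fell.

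Interferon-induced and antigen presentation genes fell in 22 of 39 cases, with none rising. Their median log2 ratio was -0.65, and 38 of 39 lay below 0. *Ifit1*, an antiviral gene, went from 173 to 97.9 RPKM, *Ifit3* from 75.3 to 32.5 RPKM and *Mx1* from 12.3 to 5.98 RPKM. Immunoproteasome subunits *Psmb8* and *Psmb9*, which make peptides for class I presentation, fell 2.07-fold and 3.2-fold and the peptide transporter gene *Tap2* 2.25-fold, but *B2m*, the light chain gene of class I, was at 1068 and 907 RPKM. Of the transcription factor genes, *Irf7*, *Irf1* and *Stat2* fell 1.68-fold, 1.59-fold and 1.59-fold and *Irf9* had a log2 ratio of -0.24. *Usp18*, a negative regulator of the interferon receptor, was the gene above 0, at 69.3 and 80.8 RPKM.

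Complement genes made by fibroblasts fell too, 9 of 11, with a median of -1.83, or -1.10 with a pseudocount of 1. Many passed the filter through the Ctrl library alone, and with at least 1 RPKM in both libraries 3 of 5 fell and 1 rose. The C1 protease genes and the gene of their inhibitor were all lower, *C1s1* from 31.6 to 6.81 RPKM, *C1ra* from 22.5 to 6.34 RPKM and *Serping1* from 7.48 to 0.706 RPKM. *Masp1*, a protease gene of the lectin pathway, was the one that rose, 1.71-fold. Chemokines were mixed, with 4 of 13 up and 5 down. *Ccl20* had 0 reads in Ctrl and 1.34 RPKM with TGFB1, which is 19.9 times the floor of 3 reads. The lower bound of its interval was a log2 ratio of 3.97. *Ccl2* rose 2.22-fold, whereas *Cxcl12* and *Cxcl5* fell 2.26-fold and 2.19-fold. Cytokine and receptor genes rose in 8 and fell in 2 of 19 cases, and with at least 1 RPKM in both libraries 4 of 15 rose and 2 fell. *Il1rl1*, the gene of the interleukin 33 receptor, went from 18.9 to 156 RPKM, *Lif* from 0.32 to 3.17 RPKM and *Il11*, an interleukin known in fibrosis, from 0.301 to 1.24 RPKM, and *Il11ra1*, its receptor gene, fell from 27.5 to 9.86 RPKM. *Ptgs2*, the inducible cyclooxygenase gene of prostaglandin synthesis, rose from 3.51 to 45.6 RPKM, 13-fold.

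Markers by which fibroblasts are recognized changed as well. Of 12, 1 rose and 6 fell, with *S100a4* lower by 4.18-fold, *Pdgfra* by 2.18-fold, *Dcn* by 2.69-fold and *Thy1* higher by 1.61-fold. Lists of the fat and bone lineages had many genes under the filter. Of 20 adipogenic genes 10 were past the filter and 4 of them fell, among them *Klf15* and *Lipe*, and *Pparg* was under 1 RPKM in both libraries. Of 17 osteochondral genes 4 were past it, of which *Spp1* and *Runx2* rose and *Msx1* and *Sox5* fell. Among 16 genes past the filter that are often used as references, *Tfrc*, *Pgk1* and *Hprt* rose 3.58-fold, 2.33-fold and 1.75-fold. *Actb*, *Tbp*, *Ppia* and *Polr2a* had log2 ratios of 0.50, 0.19, 0.13 and -0.062. With the transcript of highest RPKM for each gene, 4 of 17 reference genes rose.

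The study examines how HMGA2 and DNA demethylation act on TGFB1-inducible genes, and most genes of that machinery changed less than 1.5-fold. Of 16 genes of methylation and demethylation 3 rose, *Gadd45a*, *Gadd45g* and *Tdg*, and 1, *Mbd4*, fell. *Gadd45a*, a stress gene linked to demethylation, was at 12.3 RPKM in Ctrl and 79.2 RPKM with TGFB1, 6.43-fold (interval 5.98 to 6.92). *Tdg*, the thymine DNA glycosylase gene, rose 1.63-fold. *Tet2* and *Tet3*, whose products oxidize methylcytosine, were at 5.33 and 4.54 RPKM in Ctrl and 4.66 and 4.29 RPKM with TGFB1, and *Tet1* was under 1 RPKM in both. *Dnmt1*, the maintenance methyltransferase gene, was at 55.6 and 52.7 RPKM. The genes of the FACT histone chaperone, *Supt16* and *Ssrp1*, had log2 ratios of 0.36 and 0.32, and *Atm* one of 0.34. Of other genes that the study assayed, *Gata6* was at 1.45 and 1.2 RPKM and *Mtor* at 8.15 and 8.54 RPKM. Of the HMGA genes, *Hmga2* rose 2.75-fold (interval 2.65 to 2.86) and *Hmga1* 1.97-fold.

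Ranked by the bound of the interval nearest to no change, the 20 firmest rises held many genes that were nearly silent in Ctrl. *Gjb2*, the connexin 26 gene, led with 0.586 RPKM in Ctrl and 51.7 RPKM with TGFB1, 88.2-fold (interval 70.7 to 112). Others outside the lists were *F2rl1*, a protease-activated receptor gene, from 1.33 to 23.4 RPKM, *Htr2b*, a serotonin receptor gene, from 0.035 to 1.5 RPKM, *Sema7a*, a membrane semaphorin gene, from 0.055 to 1.99 RPKM, and the protease genes *Ctsw* and *Prss46*, at 2.89 and 1.41 RPKM with TGFB1. *C1qtnf3*, which encodes a secreted C1q-like protein, went from 0.023 to 1.02 RPKM. The firmest falls were *Gm15564*, an antisense RNA gene, from 185 to 3.98 RPKM, *Mir6236* from 49.6 to 0.572 RPKM (340 and 4 reads), and *Lars2*, the mitochondrial leucyl-tRNA synthetase gene, from 136 to 5.07 RPKM. Their log2 ratios in the *Hmga2*-/- pair were -4.77, -5.09 and -3.72. The mitochondrial synthetase genes other than *Lars2* had a median log2 ratio of -0.0076, and 0 of 15 fell. Whether the reads at *Gm15564*, *Mir6236* and *Lars2* came from these genes was not tested. *H2-Q1* went from 2.64 to 0.052 RPKM and *Srp54b* from 1.72 to 0.048 RPKM. *H2-Q1*, *Srp54b* and, among the rises, *Gm7030*, with 0 reads in Ctrl and 3.99 RPKM with TGFB1, have close copies in the genome, and how reads were shared among copies was not tested. Further among the 20 firmest falls, *Ptn*, the pleiotrophin gene, went from 64.8 to 8.86 RPKM, 7.32-fold lower (interval 6.86 to 7.82), *Cldn1*, the claudin 1 gene, from 1.89 to 0.183 RPKM, *Olfml2a* from 3.82 to 0.292 RPKM and *Calml4* from 2.97 to 0.144 RPKM. *Mamstr*, which encodes a coactivator of MEF2 factors, went from 1.33 to 0.106 RPKM. The remaining falls of that rank were *Cmbl*, *Plekha6*, *Gm765*, *Gstt1* and *Sned1*.

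In the *Hmga2*-/- pair, which shares no library with the *Hmga2*+/+ pair, the same genes are set side by side, without a test of the difference, since each genotype has 1 library per condition. Of the 1322 genes that rose in *Hmga2*+/+ MEF, 1083 were at least 1.5-fold higher in the *Hmga2*-/- TGFB1 library than in its Ctrl, and of the 1945 that fell 1421 were at least 1.5-fold lower, while 10 that rose and 24 that fell passed 1.5-fold in the opposite direction. Over all 11177 genes, 13.5% rose and 15.5% fell in the *Hmga2*-/- pair. The list medians were close for ribosome biogenesis, 1.08 in *Hmga2*+/+ and 1.00 in *Hmga2*-/-, for complement, -1.83 and -1.74, and for serine, proline and ATF4 genes, 1.05 and 1.10. The fibrillar collagen medians were 0.16 and 0.63. Of single genes, the log2 ratio of *Hbegf* was 5.27 in *Hmga2*+/+ and 5.42 in *Hmga2*-/-, that of *Thbs4* 5.70 and 4.79, that of *Acta2* 1.88 and 1.78, that of *Gadd45a* 2.68 and 2.44, and that of *Id3* -2.55 and -2.73.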

How the data were processed

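RNA-seq of total RNA (SMARTer Stranded kit, single-end reads on a NextSeq500) was analysed for *Hmga2*+/+ Ctrl and TGFB1 MEF, with the *Hmga2*-/- pair beside them. Per the submitters' processing notes the tools were FastQC, Trimmomatic, HISAT2 2.1.0, SAMtools and HOMER and the build was mm10. The authors deposited RPKM per UCSC known transcript, counted on the annotated strand, with the transcript length. Counting was over exons by the file's header and over genes by the written methods. Duplicates are mentioned there without saying whether they were pooled, so each column was taken as 1 library. No per-sample column was left unused.

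Transcripts were named by the GENCODE vM21 gene that covers at least 50% of their span on the same strand, which named 57708 of 63759. Each gene kept its transcript with the longest body. A value of 0 RPKM was set to 0.001, a gene needed at least 1 RPKM in either *Hmga2*+/+ library, and a change meant at least 1.5-fold. Depth was found as the mapped reads that turn the RPKM steps into whole reads, tested on 658 Ctrl and 661 TGFB1 values of transcripts under 600 bases, of which 100% lay within 0.1 of a whole read. Ratios have exact conditional 95% intervals. No count test was run, since the values are RPKM and each condition has 1 library. RefSeq promoter windows (GRCm38) matched 8558 of the genes past the filter, each by symbol, chromosome, strand and nearest start. *Ccn2* and *Tagln* had no entry there. Some genes are not reported here.

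The genes and lists were chosen with earlier results of these data known. Named genes were the 20 rises and 20 falls whose interval lay farthest from no change, in each list the most abundant changed genes and the extremes, the genes the study assays, *Hbegf*, *Thbs4* and *Hmga2*, and not all are printed. Genes of the pathway beyond these were named for their role after their values were seen. Both depth and intervals were checked on simulated counts. Alternatives changed the pseudocount, filter, scaling, transcript choice and fold. Python 3.11.15, numpy 2.4.6, pandas 2.3.3, scipy 1.17.1 and matplotlib 3.10.9 were used.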

Additional observations from a re-analysis of the deposited data

Results flagged for a closer look

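*Srp54b*, a gene for a subunit of the signal recognition particle, moved in opposite directions in the genotypes, with a log2 ratio of TGFB1 over Ctrl of -5.17 in *Hmga2*+/+ MEF and 1.83 in *Hmga2*-/- MEF. It was at 1.72 and 0.048 RPKM in the *Hmga2*+/+ Ctrl and TGFB1 libraries, from 315 and 9 reads. In the *Hmga2*-/- Ctrl and TGFB1 libraries it was at 0.038 and 0.135 RPKM. Both *Hmga2*-/- values lay under 1 RPKM, so the ratio of that pair rests on a low level. The difference was not tested, as each value comes from 1 library, and how reads were shared among close copies of the gene was not tested. In all, 34 genes passed 1.5-fold in opposite directions in the genotypes, and this one is given because it is among those named in the report.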

How the results depend on the processing

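The number of genes that rose was 1322, and it stayed within 1.5 times of that under a pseudocount of 0.1 or 1, filters of 0.1 RPKM in 1 library or 1 RPKM in both, rescaling to a median log2 ratio of 0, and other choices of transcript. With no filter on RPKM it was 3024 and with a 2-fold threshold 564. The number that fell was 1945, and it was 1279 with a pseudocount of 1, 3386 with at least 0.1 RPKM in 1 library, 4998 with no filter and 829 at 2-fold. Fewer or more genes tested, a shrunken ratio of low genes and a higher threshold are what these alternatives consist of. After rescaling 1468 genes rose and 1740 fell. Of 424 list medians under the alternatives 12 moved by more than a 1.5-fold ratio, and none that had passed it changed sign. Of 8436 values of single listed or named genes 108 moved as far and none of those that had passed 1.5-fold changed sign. Of these, 105 were values with a pseudocount. The complement median, -1.83, was -1.10 with a pseudocount of 1 and -1.21 for genes with at least 1 RPKM in both libraries, and the EGF family median, 1.42, was 0.09 with no filter. Leaving out a replicate was not possible with 1 library per condition. No paired analysis was possible because each condition has 1 library. Counting error alone limits genes near 1 RPKM, and the spread between cultures is unknown.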

Other observations

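Further gene families were read after the values were seen, each taken by its symbols and not tested. The cytosolic aminoacyl-tRNA synthetases, which charge tRNAs for translation, rose in 15 of 20 genes with none falling and a median log2 ratio of 0.72. *Iars* rose 2.31-fold and *Nars* went from 40.9 to 84.3 RPKM, while *Qars* and *Hars* were at 14.2 and 15.6 RPKM in Ctrl and 12.4 and 17.3 RPKM with TGFB1. Their mitochondrial counterparts, read without *Lars2*, rose in 3 of 15 cases. The 8 subunits of the chaperonin TRiC, which folds actin and tubulin, ran from a log2 ratio of 0.58 to 1.18, and 7 rose.

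*Gja1*, the main connexin gene of fibroblasts, was at 176 and 249 RPKM. Of 10 semaphorin genes 6 fell, with *Sema3f* 3.61-fold lower, and *Sema7a* rose. Glutathione S-transferases fell in 6 of 9 cases, and *Gsto1*, of the omega class, rose from 25.3 to 67.5 RPKM. No S100 gene of 7 lay above its Ctrl level, and 3 fell. Among ADAM protease genes *Adam12* rose 48.6-fold and the other 6 had log2 ratios between -0.23 and 0.33, the bounds being *Adam15* and *Adam19*. Ephrins and their receptors gave 2 rises and 3 falls of 13, with *Epha2* 2.59-fold higher and *Epha7* 2.11-fold lower.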
